A study of Danio rerio with 18 samples.

Results

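To follow the RNA of the egg coat through zebrafish development, sites of 5-methylcytosine (m5C) were taken from 9 stage lists wherever the gene symbol started with zp2 or zp3, in small letters or capitals. The rule selected 65 of 21214 entries, which were 18 of 9047 distinct sites in 11 of 5129 genes. Besides the gene name, the sites were chosen by the m5C calls of the lists, since each entry has at least 20 reads and a level of at least 10%. Numbers of sites and their levels are therefore given as a description. The entry nearest to the level minimum was a site of zpax1 with 6 C reads of 60 at 4 hours post fertilisation (hpf), and sites just under the minimum were not analysed here. The RNA was polyadenylated RNA of pooled wild type AB embryos and larvae taken every 2 hours to 10 hpf and again at 16, 24 and 48 hpf, with no treatment, and each stage had 2 libraries. After bisulfite treatment an unmethylated cytosine reads as T and m5C as C. The level of a site is thus the share of C among all C and T reads there, and coverage is the number of these reads. Each list combines the libraries of its stage, so no value below has an error between replicates. Intervals of levels are 95% Wilson intervals, which cover counting error only.

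Zona pellucida proteins build the extracellular coat of the vertebrate egg, which in fish is called the chorion. They share a zona pellucida domain, through which they polymerise into filaments. In zebrafish their mRNAs are made by the growing oocyte, so that the egg holds them as maternal transcripts. The maternal mRNAs of an egg are largely cleared when the embryo starts to transcribe its own genome, a change known as the maternal-to-zygotic transition. m5C is put on mRNA by the methyltransferases NSUN2 and NSUN6.

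The 11 genes fall into 3 families. The zp3 family, relatives of the mammalian ZP3 that polymerises with ZP2 in the mouse egg coat, had 6 sites. They lay in zp3b (ENSDARG00000039828, chromosome 2, position 5900722, plus strand), zp3c (ENSDARG00000092919, chromosome 1, position 50022454, minus strand), zp3a.2 (ENSDARG00000042130, chromosome 20, positions 34012447 and 34012893, plus strand) and a pair of gene IDs that both carry the symbol zp3.2. These were ENSDARG00000087209 (chromosome 17, position 2360113, minus strand) and ENSDARG00000089352 (position 2367087, minus strand), called zp3.2 a and zp3.2 b here, with sites 6974 nt apart. The zp2 family had 3 sites on the plus strand of chromosome 20, in zp2.2 (ENSDARG00000091737, position 54549689), zp2.6 (ENSDARG00000091409, position 54563818) and zp2.1 (ENSDARG00000086352, position 54568163).

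The other 3 gene IDs are labelled ZP2 in the lists and zpax1, zpax2 and zpax4 in a table of current gene names, which holds 8 of the 11 IDs. The zpax genes are a branch of the zona pellucida family that occurs in the egg coat of fish, frogs and birds. They had 9 sites on the minus strand. Of these 5 were in zpax1 (ENSDARG00000069251, chromosome 20, between 43771254 and 43774631), 1 in zpax2 (ENSDARG00000017188, chromosome 20, position 14016293) and 3 in zpax4 (ENSDARG00000079034, chromosome 7, positions 21735832, 21737880 and 21738481). Sites of a gene are lettered in the order of their position. Positions are those of the Zv9 assembly, whose sequence and exon annotation were not used here, so sites are not placed in exons or untranslated regions and no bases around them are shown. In RefSeq's order of genes on GRCz12tu, zp3.1, zp3 and zp3.2 stand in a row, and zp3a.2 stands next to zp3a.1. In the same order zp2.2 stands next to zp2.3, and zp2.1 between zp2.6 and zp2.5. Reads that fit several copies could enter through the authors' alignment to transcripts, so values of these neighbouring relatives are less certain.

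The egg coat genes were a small part of the early lists and a larger part of the later ones. They had 12 sites in 7 genes at 0 hpf, 11 sites in 8 genes at 2 hpf, 12 in 10 at 4 hpf, 7 in 6 at 6 hpf, 11 in 8 at 8 hpf, 10 in 8 at 10 hpf and 2 in 2 at 16 hpf. No site was listed at 24 or 48 hpf. In order of these 7 stages that was 0.256%, 0.177%, 0.204%, 0.261%, 0.879%, 2.34% and 9.52% of all listed sites. The number of egg coat sites was thus close to its start at 8 and 10 hpf, whereas the whole list held 1252 sites at 8 hpf and 428 at 10 hpf, against 4695 at 0 hpf. The lists of 16 hpf and later are short (21, 14 and 25 sites).

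The same sites made up much of this number. Of the 12 egg coat sites of 0 hpf, 8 were listed at 8 hpf (66.7%, Wilson 95% interval 39.1% to 86.2%), against 17.0% of all 0 hpf sites (16.0% to 18.1%). At 10 hpf the list held 7 of the 12 (58.3%, 32.0% to 80.7%), against 5.47% of all 0 hpf sites (4.86% to 6.16%). At 4 hpf, before the whole list became much shorter, the shares were close, at 8 of 12 (66.7%) and 67.8%. By gene, 6 of the 7 egg coat genes listed at 0 hpf were listed at 10 hpf, against 8.38% of the 3006 genes listed at 0 hpf. Only zpax2 of these 7 was missing at 10 hpf. The zpax1 gene was listed at 10 hpf by site d alone (6 of 56 reads), which no earlier list held. The genes were known from earlier results to stay in the later lists when they were chosen, so these shares are descriptions. Some of the 12 sites share a gene, whereas the intervals treat sites as independent, so the intervals are not a test.

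**Figure D1:**
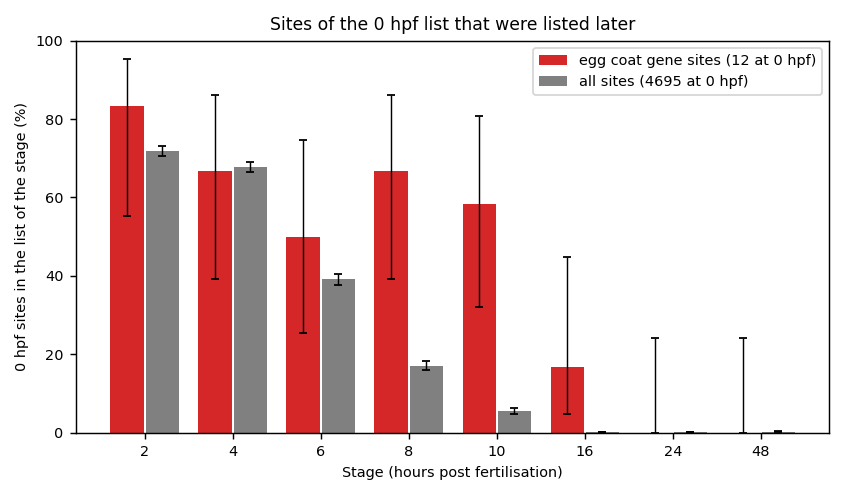
Percentage of the sites of the 0 hpf list that were in the list of each later stage (x axis, hours post fertilisation), for egg coat gene sites (red, left bar) and all sites (grey, right bar), with 95% Wilson intervals. At 8 and 10 hpf 8 and 7 of the 12 egg coat sites were listed, against 17.0% and 5.47% of all sites. The intervals treat sites as independent, although some share a gene.

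Part of the sites were missing at 6 hpf and listed before and after it. Of the 11 egg coat sites of 8 hpf, 6 were missing at 6 hpf and present in a list of 0 to 4 hpf, which is 54.5% against 23.7% of all 8 hpf sites. Of these 6, the sites zp3c, zp3.2 a and zpax1 b were in the 4 hpf list, whereas zpax4 a was last listed at 2 hpf and zp3a.2 b and zpax1 e at 0 hpf. The site of zp2.1 was first listed at 8 hpf and zpax1 d at 10 hpf. Of the 18 sites, 13 (72.2%) were in 3 or more lists, against 40.8% of all sites. In each list from 0 to 10 hpf were 4 egg coat sites, in zp3b, zp3.2 b, zp3a.2 a and zpax4 c, of 186 such sites in all genes.

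The levels of the egg coat sites were spread from the list minimum to 81.8%. Over the 6 stages to 10 hpf, the median of the egg coat sites was 13.9%, 21.3%, 21.3%, 27.3%, 24.5% and 18.9% in order of time. Over all listed sites it was 19.4%, 19.3%, 19.2%, 18.9%, 16.5% and 16.7% in the same order. The egg coat median rests on 7 to 12 sites, and its 95% interval from order statistics held the median of all sites at each of these stages (12.2% to 50.5% at 0 hpf and 10.7% to 54.6% at 10 hpf). That interval too treats sites of the same gene as independent. The centre of so few sites moved with the measure and with the depth required. The mean weighted by coverage was 22.9% at 0 hpf, 37.2% at 2 hpf and 38.8% at 4 hpf. A mean can differ from a median without any weights, so these values do not show what weighting alone did. With at least 50 reads the median at 4 hpf was 43.4% over 9 sites, and with at least 100 reads it was 16.2% over 5. A level of at least 50% was found at 3, 3, 4, 1, 2 and 2 egg coat sites in the order of these stages, and at 12.7%, 12.7%, 12.9%, 8.90%, 5.03% and 5.14% of all listed sites.

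**Figure D2:**
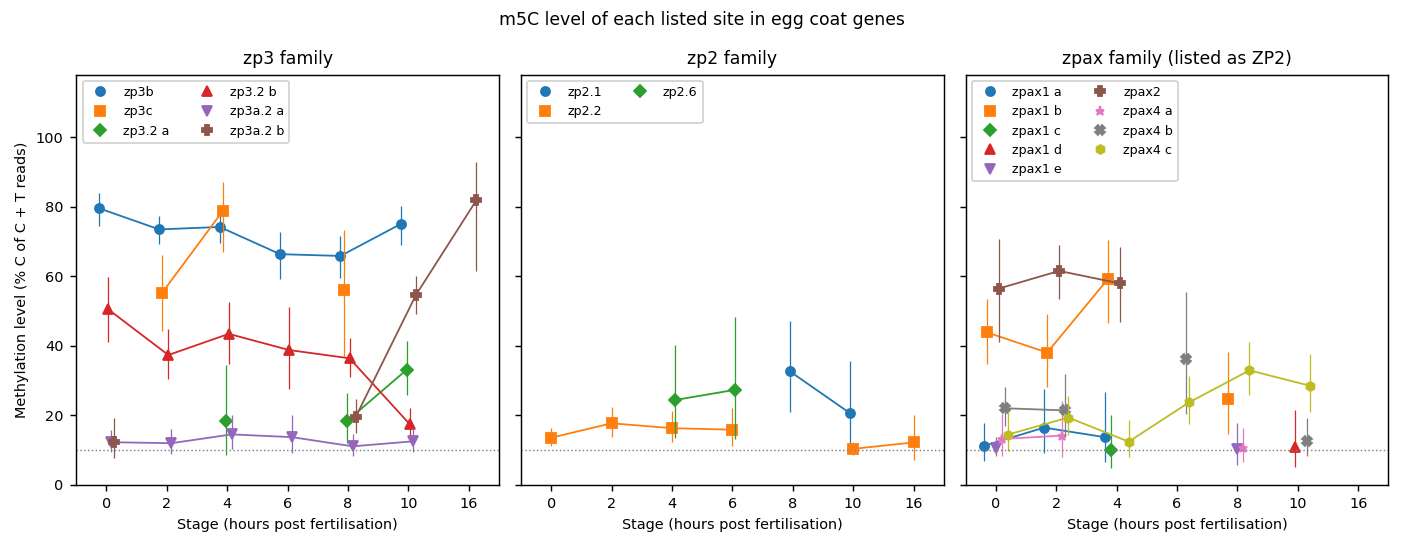
Methylation level of each egg coat site (y axis, percent C of C and T reads) by stage (x axis, hours post fertilisation, evenly spaced), with 95% Wilson intervals and lines between neighbouring stages at which a site was listed. The dotted line is the list minimum of 10%. The zp3b site lies between 65.8% and 79.5%, and zp3a.2 b stands at 81.8% at 16 hpf, against 12.2% at 0 hpf.

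The most methylated egg coat site in each list to 10 hpf, other than that of 4 hpf, was in zp3b, a zp3 gene with 1 site. Its level was 79.5% at 0 hpf (229 of 288 reads), 73.4% at 2 hpf (337 of 459), 74.1% at 4 hpf (278 of 375), 66.3% at 6 hpf (122 of 184), 65.8% at 8 hpf (150 of 228) and 75.0% at 10 hpf (174 of 232). The highest and the lowest of these levels lay 13.7 points apart. At 10 hpf 99.1% of all listed sites had a lower level (98.4% at 8 hpf, 95.1% at 4 hpf). The site of zp3c was also high, with 55.3% at 2 hpf (42 of 76 reads), 78.7% at 4 hpf (48 of 61) and 56.0% at 8 hpf (14 of 25), and its Wilson intervals at 2 and 8 hpf reached 65.9% and 73.3%.

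The zp3a.2 gene held a pair of sites, 446 nt apart in the genome, with unlike courses. Site a, at 34012447, had 12.2% at 0 hpf (53 of 435 reads), 11.9% at 2 hpf (37 of 311), 14.4% at 4 hpf (29 of 201), 13.6% at 6 hpf (21 of 154), 11.0% at 8 hpf (43 of 391) and 12.4% at 10 hpf (45 of 362). These levels span 3.43 points. Site b, at 34012893, had 12.2% at 0 hpf (15 of 123 reads), was in no list of 2 to 6 hpf, and had 19.4% at 8 hpf (49 of 253), 54.6% at 10 hpf (167 of 306) and 81.8% at 16 hpf (18 of 22, Wilson interval 61.5% to 92.7%). Site b thus stood 69.6 points higher at 16 hpf than at 0 hpf, while site a of the same gene stayed near the list minimum in each list that held it.

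The zp3.2 pair also went separate ways. The site of zp3.2 b had 50.5% at 0 hpf (53 of 105 reads), 37.3% at 2 hpf (63 of 169), 43.4% at 4 hpf (49 of 113), 38.7% at 6 hpf (24 of 62), 36.3% at 8 hpf (101 of 278) and 17.3% at 10 hpf (50 of 289). The site of zp3.2 a had 18.2% at 4 hpf (6 of 33 reads), 18.2% at 8 hpf (20 of 110) and 33.1% at 10 hpf (46 of 139). At 8 hpf zp3.2 b was the higher of the pair, and at 10 hpf it was the lower. How reads were shared between these gene IDs was not tested.

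In the zp2 family, which lies in a row on chromosome 20, no level was above 32.6%. Summed over stages, the site of zp2.2 had the highest coverage of all members. Its level was 13.5% at 0 hpf (99 of 735 reads), 17.6% at 2 hpf (55 of 312), 16.2% at 4 hpf (42 of 259), 15.8% at 6 hpf (27 of 171), 10.3% at 10 hpf (100 of 974) and 12.1% at 16 hpf (12 of 99). The zp2.2 site was missing at 8 hpf alone among the stages up to 16 hpf. At 10 hpf its level was only just above the list minimum. The other zp2 sites were seen at few stages and on few reads: zp2.6 had 27.3% at 6 hpf (6 of 22), against 24.3% at 4 hpf (9 of 37), and zp2.1 had 20.5% at 10 hpf (8 of 39), against 32.6% at 8 hpf (15 of 46).

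The zpax genes held sites of 38.0% to 61.5% in the lists to 4 hpf, and low ones beside them. The single site of zpax2 had 56.4% at 0 hpf (22 of 39 reads), 61.5% at 2 hpf (91 of 148) and 57.9% at 4 hpf (44 of 76) and was in no later list. In zpax1, site b had 43.8% at 0 hpf (46 of 105), 38.0% at 2 hpf (30 of 79), 59.0% at 4 hpf (36 of 61) and 24.5% at 8 hpf (12 of 49). The cytosine beside it, site c at position 43772017, was listed at 4 hpf alone, with 10.0% of 60 reads, so adjacent cytosines on nearly the same number of reads had levels of 59.0% and 10.0%. Site a had 11.1% at 0 hpf (14 of 126 reads), 16.4% at 2 hpf (10 of 61) and 13.6% at 4 hpf (6 of 44). Sites d and e stayed between 10.2% and 10.7%, and site e was listed only at 8 hpf, on 98 reads, and at 0 hpf, on 461.

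In zpax4, site c was listed at each stage to 10 hpf, with 14.4% at 0 hpf (21 of 146 reads), 19.3% at 2 hpf (38 of 197), 12.3% at 4 hpf (19 of 154), 23.6% at 6 hpf (35 of 148), 32.9% at 8 hpf (46 of 140) and 28.4% at 10 hpf (31 of 109). Its 3 highest levels were those of 6, 8 and 10 hpf. Site b had 22.0% at 0 hpf (45 of 205), 21.3% at 2 hpf (16 of 75), 36.0% at 6 hpf (9 of 25) and 12.6% at 10 hpf (18 of 143). Site a had 13.1% at 0 hpf (16 of 122), 14.1% at 2 hpf (10 of 71) and 10.5% at 8 hpf (16 of 152).

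Changes between consecutive stages were then tested to ask when the m5C levels of these mRNAs moved. For each site listed at both stages, the C and T reads were compared by a two-sided Fisher's exact test, and p values were adjusted by Benjamini-Hochberg over all such sites of all genes, with a threshold of 0.05. The test sets the combined libraries of one stage against those of the other and takes no account of variation between replicates. Over the 6 steps to 16 hpf, egg coat sites entered 38 tests, of which 5 (13.2%) were called, against 16.8% of the 11423 tests of all sites. With a spread between stages added, as described below, 3 (7.89%) were called, against 9.87%. These totals do not mix the steps alike. At 2 against 0 and 4 against 2 hpf were 10 and 9 of the 38 tests. Of the 11423 tests, 3373 and 4587 were at these 2 steps, where the shares of calls were lowest. The totals are therefore not a matched comparison, and shares are given by step below.

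Up to 4 hpf no egg coat site passed the threshold. At 2 against 0 hpf none of 10 was called, where 9.69% of all 3373 shared sites were. At 4 against 2 hpf none of 9 was called, where 5.95% of 4587 were. The largest difference in these steps was in zp3c, 23.4 points higher at 4 than at 2 hpf (95% Newcombe interval 7.52 to 37.4 points), which did not pass (Fisher's exact test, adjusted p = 0.0838).

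At 6 against 4 hpf, when 34.1% of the 2367 shared sites of all genes were called lower and 1.01% higher, none of 6 egg coat sites was called lower and 1 was called higher. This was zpax4 c, with 23.6% at 6 hpf against 12.3% at 4 hpf, a rise of 11.3 points (2.65 to 19.9 points, Fisher's exact test, adjusted p = 0.0335). In a z test with added spread, whose size was set from 4 against 2 hpf, its adjusted p was 0.0942, so this call was lost. That test called 0.169% of all shared sites higher. The median change was -0.61 points over the 6 egg coat sites and -4.99 points over all sites. A site is tested only if both lists hold it, so its level cannot fall below 10% there. The sites zp3a.2 a, zp2.2 and zpax4 c stood at 14.4%, 16.2% and 12.3% at 4 hpf. Only small falls could be seen in them. The zp3b site was 7.83 points lower at 6 hpf by its levels of 66.3% against 74.1% (interval of the difference -16.1 to 0.116 points, Fisher's exact test, adjusted p = 0.136).

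At 8 against 6 hpf, 49.7% of the 754 shared sites of all genes were called, 46.2% lower and 3.58% higher, and none of the 4 egg coat sites was. Their differences were -2.38 points in zp3.2 b (interval -16.0 to 10.2), -0.51 points in zp3b (-9.57 to 8.69), -2.64 points in zp3a.2 a (-9.52 to 3.09) and 9.21 points in zpax4 c (-1.18 to 19.4). Over all sites the median change was -8.99 points. The intervals of zp3.2 b, zp3b and zp3a.2 a include falls of that size, and that of zpax4 c does not. The zp3a.2 a site stood at 13.6% at 6 hpf, so a fall of that size would have taken it out of the list.

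At 10 against 8 hpf the egg coat genes moved in both directions. Of 7 sites 2 were called higher and 1 lower, where 3.89% of the 334 shared sites of all genes were called higher and 28.7% lower. The level of zp3a.2 b stood at 54.6% at 10 hpf against 19.4% at 8 hpf, a rise of 35.2 points (27.5 to 42.2, Fisher's exact test, adjusted p = 1.03e-16, and 2.51e-09 with the added spread). This rise was the first in size of all 334 sites. The site of zp3.2 b fell by 19.0 points (interval -26.0 to -11.8, Fisher's exact test, adjusted p = 2.63e-06, and 0.000578 with the added spread). The site of zp3.2 a rose by 14.9 points (3.92 to 25.1, Fisher's exact test, adjusted p = 0.0309), and with the added spread its adjusted p was 0.0704. With the added spread 1.8% of all shared sites were called higher and 22.2% lower, among them zp3a.2 b and zp3.2 b. The other 4 sites, in zp3b, zp3a.2 a, zp2.1 and zpax4 c, did not pass the threshold, with differences from -12.1 to 9.21 points.

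**Figure D3:**
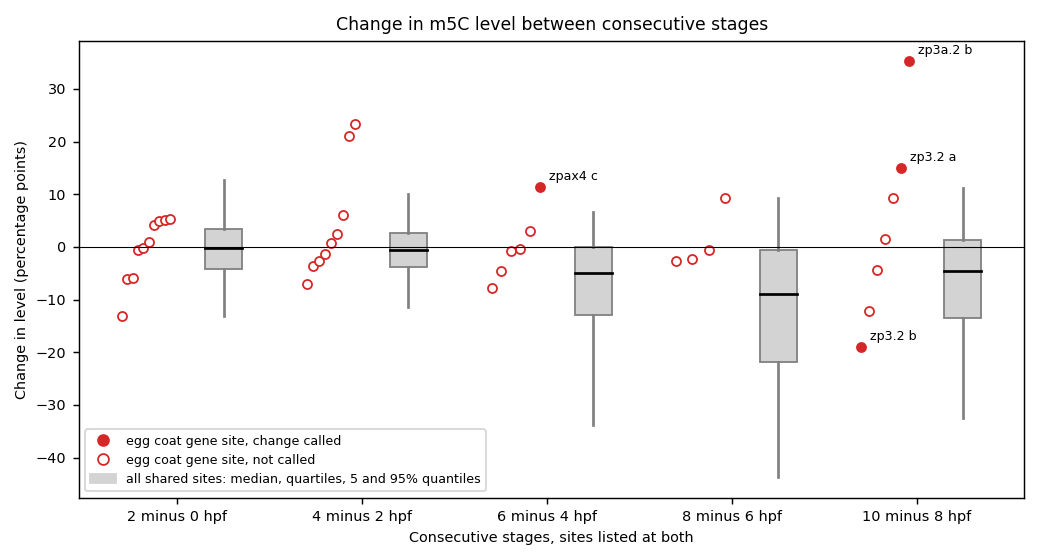
Change in methylation level (y axis, percentage points, later minus earlier stage) for sites listed at both of 2 consecutive stages (x axis). Red points are egg coat sites, filled where Fisher's exact test called the change, and grey boxes with whiskers give the quantiles of all shared sites. The largest change, in zp3a.2 b, was 35.2 points at 10 against 8 hpf, and no egg coat site was called lower before that step. Falls below the list minimum of 10% are not shown, since such a site leaves the list.

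At 16 against 10 hpf only 8 sites of all genes were shared, of which 12.5% were called higher. The 1 site called higher was zp3a.2 b, with 81.8% of 22 reads at 16 hpf against 54.6% of 306 reads at 10 hpf (27.2 points, 6.18 to 39.5, Fisher's exact test, adjusted p = 0.0277, and 0.0447 with the added spread, which also called 12.5% of sites higher). This call rests on 22 reads and has no value where at least 50 reads are required. The zp2.2 site did not pass, with 12.1% at 16 hpf against 10.3% at 10 hpf.

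Comparing the later stages with the egg itself, a choice made after the values had been seen, gave the net change. At 8 against 0 hpf 54% of the 800 shared sites of all genes were called lower and 2.75% higher. Of 8 egg coat sites 2 were called lower, zp3b by 13.7 points and zp3.2 b by 14.1 points, and 1 higher, zpax4 c by 18.5 points (8.68 to 27.9, Fisher's exact test, adjusted p = 0.00062). With the added spread, 50.2% of all shared sites were called lower and 1.88% higher. The adjusted p of zp3.2 b was then 0.0568, and its call was lost, while zp3b and zpax4 c kept theirs. The site of zpax1 b did not pass, with 24.5% at 8 hpf against 43.8% at 0 hpf on 49 and 105 reads. At 10 against 0 hpf 52.9% of the 257 shared sites were called lower and 5.45% higher. Of 7 egg coat sites 1 was called lower, zp3.2 b with 17.3% at 10 hpf against 50.5% at 0 hpf, and 2 higher, zp3a.2 b by 42.4 points and zpax4 c by 14.1 points. These 3 calls were also made with the added spread, by which 49.8% of all shared sites were lower and 4.67% higher. The site of zp3b, at 75.0% against 79.5%, did not pass (interval of the difference -11.8 to 2.68 points, Fisher's exact test, adjusted p = 0.33). The median change from 0 hpf was -3.20 points over the egg coat sites and -11.8 points over all sites at 10 hpf. Here too no tested site can fall below 10%. At 0 hpf zp3a.2 a, zp3a.2 b, zp2.2 and zpax4 c stood at 12.2%, 12.2%, 13.5% and 14.4%. Among sites tested at 8 against 0 hpf, zpax1 e and zpax4 a stood at 10.6% and 13.1%. Only small falls could be seen in these sites, so few calls of lower levels do not show that they were stable.

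Of the 4 egg coat sites in each list to 10 hpf, 3 had their lowest coverage at 6 hpf and more reads at 8 and 10 hpf. The zp3.2 b site, for which the reads of each stage are given above, had 62 reads at 6 hpf, the zp3a.2 a site 154 and the zp3b site 184. The exception was zpax4 c, whose lowest coverage was the 109 reads of 10 hpf. The zp2.2 site had 735 reads at 0 hpf, 171 at 6 hpf and 974 at 10 hpf, and then 99 at 16 hpf. Coverage depends on the depth of the libraries of a stage, which was not used here, so it is read only against that of other sites in the same lists. In whole embryos, fewer cells of a type and less RNA per cell cannot be told apart.

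**Figure D4:**
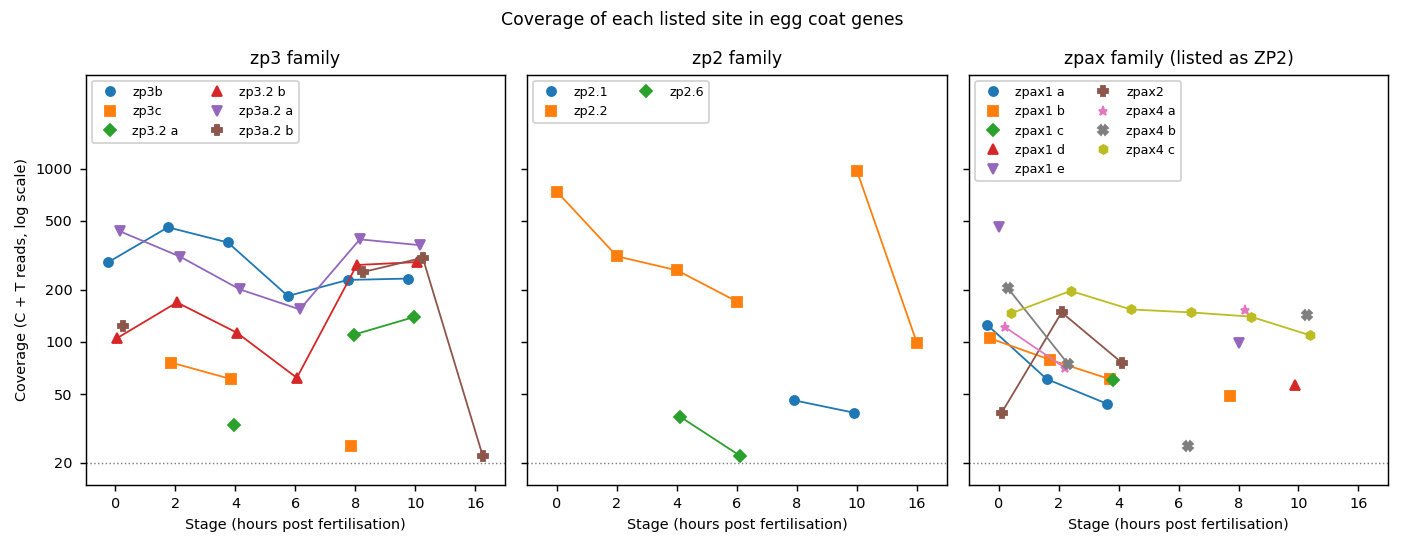
Coverage of each egg coat site (y axis, C and T reads of the combined libraries, log scale) by stage (x axis, hours post fertilisation, evenly spaced), with the list minimum of 20 reads as a dotted line. The zp3.2 b, zp3a.2 a and zp3b sites have their lowest coverage at 6 hpf, with 62, 154 and 184 reads.

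Coverage at 10 and 6 hpf was then set against that of other genes. Of the 6 egg coat sites listed at both 6 and 10 hpf, 5 had more reads at 10 hpf, and the median ratio of coverage at 10 over 6 hpf was 3.51. Over all 256 sites listed at both stages 41.8% had more reads at 10 hpf, and the median ratio was 0.817. The egg coat ratios were 5.72 in zpax4 b (143 reads at 10 hpf against 25 at 6 hpf), 5.70 in zp2.2, 4.66 in zp3.2 b, 2.35 in zp3a.2 a, 1.26 in zp3b and 0.736 in zpax4 c. The ratio of zpax4 b starts from few reads, and with at least 50 reads at 6 hpf the median of the other 5 was 2.35, against 0.645 over 230 sites. Sites enter this comparison only if both lists hold them, and it was chosen after the values had been seen. Against 0 hpf the contrast was small. The median ratio at 10 over 0 hpf was 0.832 over 7 egg coat sites and 0.747 over 257 shared sites. At 6 over 0 hpf it was 0.472 over 6 egg coat sites and 0.973 over 1837 shared sites.

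Other transcripts of the oocyte had fewer reads at 10 than at 6 hpf in the same lists. Of a list of 40 oocyte and egg genes, 16 had listed sites, and 6 sites in 5 of these were listed at both 6 and 10 hpf. All 6 had fewer reads at 10 than at 6 hpf, with ratios from 0.0632 to 0.374. In this ratio they did not overlap with the egg coat sites, among sites listed at both stages. A listed site needs at least 20 reads at 10 hpf, so its lowest possible ratio depends on its reads at 6 hpf. The median coverage at 6 hpf was 778.5 reads over these 6 sites and 151 over the egg coat sites. The lowest ratios of the oocyte and egg sites could therefore not occur in egg coat sites. Of all 256 shared sites, 26.2% had a ratio below that of zar1, the highest of the 6. The lowest egg coat ratio, 0.736 in zpax4 c, had 48.0% of all shared sites below it. At 8 over 6 hpf the groups overlapped, with oocyte and egg ratios up to 1.26 and egg coat ratios from 0.946. The germ plasm organiser buc had 72 reads at 10 hpf against 922 at 6 hpf, the egg linker histone h1m had 1306 against 11087, and zar1, which is needed for early oocyte and embryo development, had 218 against 583. The same zar1 site had 219 reads at 0 hpf, and a second one, at 23413509, had 181 at 10 hpf against 111 at 0 hpf. The other sites of the list held at both these stages had fewer reads at 10 hpf. At 0 hpf h1m had 109503. Against 0 hpf the groups thus overlapped, since zp3b had 232 reads at 10 hpf and 288 at 0 hpf. Of a list of 11 other zona pellucida domain genes, matched by the symbols in the lists, under which the zpax genes are ZP2, 1 had listed sites. This was zpcx (ENSDARG00000059252, chromosome 17), whose site at 25119098 was listed from 0 to 10 hpf with levels between 17.0% and 31.8% and had 139 reads at 10 hpf against 47 at 6 hpf, a ratio of 2.96. No change in zpcx was called in the 5 steps, and its ratio lay within the range of the egg coat sites.

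**Figure D5:**
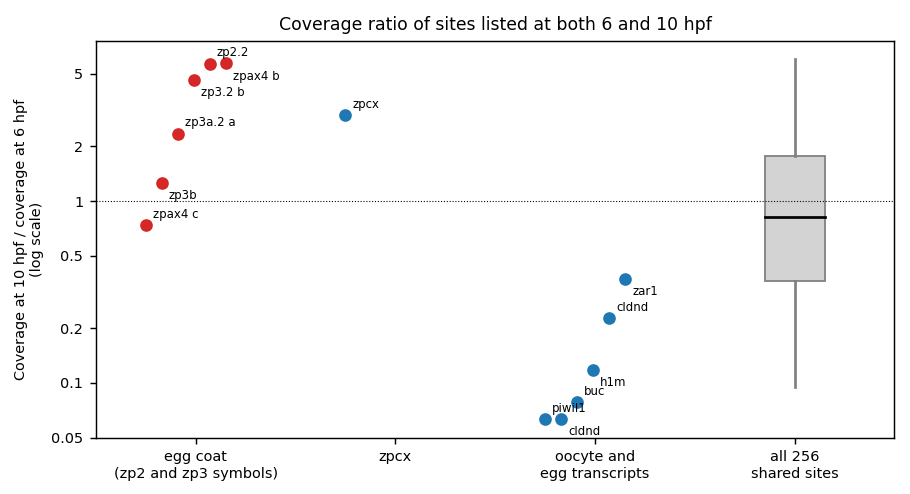
Ratio of coverage at 10 hpf over coverage at 6 hpf (y axis, log scale) for sites listed at both stages, in egg coat genes (red), zpcx and oocyte and egg transcripts (blue), with quantiles of all 256 shared sites (grey box with whiskers from 5 to 95%). The 6 egg coat sites lie between 0.736 and 5.72, above the 6 sites of oocyte and egg transcripts. Of all shared sites, 26.2% lie below the highest of these transcripts and 48.0% below the lowest egg coat site.

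The stage pattern of the egg coat genes was also set against single genes. For each of 930 other genes with at least 3 sites, the share of its sites listed at each of the 9 stages was compared with the same shares of the 18 egg coat sites. The most alike were iars2, the mitochondrial isoleucyl-tRNA synthetase gene (mean absolute difference of the shares 0.0802, 3 sites), mknk2a, a kinase of the translation factor eIF4E (0.0926, 3 sites), and ENSDARG00000023479, which the name table calls lrp13, a lipoprotein receptor gene (0.0944, 7 sites). All 3 had a listed site at 10 hpf and none later.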

How the data were processed

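RNA bisulfite sequencing of polyadenylated RNA was made at 9 stages with 2 libraries each. Per the study's methods, reads were trimmed by the authors and aligned to the converted Zv9 genome with HISAT2, and what was left to converted transcripts with Bowtie2. The authors then removed reads and genes that resisted conversion, and combined replicates. The deposited coverage is a count of the C and T reads at a site, and the deposited level is a fraction, given in percent here. The deposited p-value of each site was not used. C reads were coverage times level, whole within 1e-06 at all entries. Groups are the stages that the sample titles give.

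Sites were matched by chromosome, position and strand. Fisher's exact test (scipy 1.17.1) and a z test with beta-binomial variance (correlation of reads within a stage of 0.00232, set from 2 and 4 hpf) were run over all shared sites at a threshold of 0.05, with Benjamini-Hochberg adjustment, and were tested on simulated data. The pooled reads allow no model across replicates. Depth is the coverage of a site. Members, gene lists and tests were chosen with earlier results of these data known. All genes with the symbols were named, with full values for sites in 3 or more lists, with a called change or with the highest coverage in a gene, and the 3 genes most alike by stage were added. Alternatives were stricter coverage, level and C read minima, weighting by coverage, matching within 2 nt, narrower or wider gene names and, chosen after the values were seen, comparisons with 0 hpf and of coverage.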

Additional observations from a re-analysis of the deposited data

How the results depend on the processing

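No paired analysis was possible because the lists combine the replicates of a stage, and leaving out a replicate was not possible either. No value reversed. Of 27 median levels or weighted means under an alternative, 7 differed from the reported median by over 1.5 times. These were the means weighted by coverage at 0, 2 and 4 hpf (22.9%, 37.2% and 38.8%), the median at 4 hpf with at least 50 reads (43.4%), and all 3 values at 16 hpf, where the median of 2 sites was 47.0% (24.8% weighted, and 12.1% with at least 50 reads or with sites listed throughout 0 to 6 hpf). For the 11 called changes of single sites, 31 of 34 values under an alternative kept the call and 3 lost it. For the 42 changes that were not called, 1 of 126 gained one. A value counts here only where the site still met the limits at both stages, so changes of sites that an alternative removed are in neither count. The number of egg coat sites moved where fewer met the limit. It was 5, 6, 6, 6, 5 and 1 at 0, 2, 4, 8, 10 and 16 hpf with a level of at least 20%, 6, 5, 4, 7 and 0 at 2, 4, 6, 8 and 16 hpf with at least 100 reads, and 1 at 16 hpf with at least 50 reads. The zp3 symbols alone gave 4, 4, 5, 3, 6, 5 and 1 sites from 0 to 16 hpf, and the zp2 symbols alone 7, 7, 4, 5, 5 and 1 from 2 to 16 hpf. Without zpax1, zpax2 and zpax4, chosen after the data were seen, 5, 5, 7 and 7 sites were left at 0, 2, 4 and 8 hpf. Of egg coat sites with at least 100 reads, 6 of 6 sites of 2 hpf were listed again at 4 hpf (100%, as against 81.8% of those with any coverage), 5 of 5 sites of 4 hpf at 6 hpf (100%, as against 50%) and 6 of 7 sites of 8 hpf at 10 hpf (85.7%, as against 63.6%). Over all sites with at least 100 reads these shares were 82.9%, 54.1% and 31.9%, as against 73.9%, 40.2% and 26.7%.

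With the extra spread, 0 sites were called higher at 6 than at 4 hpf, 1 higher at 10 than at 8 hpf and 1 lower at 8 than at 0 hpf. The calls lost were those of zpax4 c, zp3.2 a and zp3.2 b, with adjusted p of 0.0942, 0.0704 and 0.0568. A level of at least 20% at both stages left 0 called sites in either direction at 10 against 8 hpf and at 10 against 0 hpf, 0 higher at 8 against 0 hpf and 0 higher at 6 against 4 hpf, because zp3a.2 b, zp3.2 a, zp3.2 b and zpax4 c are under that level at one of the stages. At least 50 reads left 0 higher at 16 against 10 hpf. At least 100 reads gave 2 lower at 10 against 0 hpf, with zpax4 b added (Fisher's exact test, adjusted p = 0.0477).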

Other observations

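In the list of 40 oocyte and egg genes, 2 sites were called higher in consecutive steps after 6 hpf. The buc site had 15.4% of 5213 reads at 2 hpf, 10.9% of 6128 at 4 hpf, 11.2% of 922 at 6 hpf, 17.9% of 290 at 8 hpf and 33.3% of 72 at 10 hpf, and it was called higher at 8 than at 6 hpf and at 10 than at 8 hpf (Fisher's exact test, adjusted p = 0.00835 and 0.0213). With the added spread the adjusted p values were 0.0734 and 0.0471. The h1m site was called higher at 8 than at 6 hpf, with 52.7% of 2691 reads against 39.6% of 11087 reads (adjusted p of 2.23e-33, and 0.000745 with the added spread). Of 8 sites of the list tested at 8 against 6 hpf, 2 were called higher and none lower, where 3.58% of all shared sites were called higher and 46.2% lower. Of 7 at 10 against 8 hpf 1 was called higher and none lower, where 3.89% of all shared sites were called higher and 28.7% lower. At 6 against 4 hpf none of 11 was called higher and 4 were called lower, where 34.1% of all shared sites were called lower. With the added spread the calls of cdc20 and h1m were lost (adjusted p values of 0.0583 and 0.257) and those of igf2bp3 and ccnb1 were kept. That test called 589 of all 2367 shared sites lower at 6 against 4 hpf. It called 19 of 754 higher at 8 against 6 hpf and 6 of 334 higher at 10 against 8 hpf. The site of ccnb1, the cyclin B1 gene, had 12.8% of 78 reads at 6 hpf against 34.8% of 273 reads at 4 hpf.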
